A study of Mus musculus with 39 samples.

Results

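Tight late segments were stretches of the mouse genome that lay inside a tightly wrapped domain but replicated late in S phase. A segment was an unbroken overlap of at least 100 kb, on chromosomes 1 to 19, between a TiNRD, a nucleosome wrapping domain with an index above 0, and a late replication timing (RT) domain, with a value below 0. The rule found 625 tight late segments among 2375 segments of the 4 combinations of calls, beside 708 tight early, 679 loose late and 363 loose early segments. Tight late segments covered 283.75 Mb, or 12.4% of the 2281.65 Mb of autosomal sequence called in both lists.

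Both lists came from R1 mouse embryonic stem cells, an established wild type line for which the labels give the inner cell mass as tissue, grown in serum with leukemia inhibitory factor and without any treatment that differed between groups. Of the 39 samples of the study, 4 H3-wrapping-seq libraries (crosslinked chromatin cut with micrococcal nuclease and enriched for histone H3) and 8 replication timing libraries (the S1 to S4 fractions of S phase, sorted after 2 h of BrdU labelling) from 2 independent experiments each belong to these lists. Each list holds 1 value per domain and names no replicate, so no value per library and no spread between cultures could be given from the lists. The paper reports read numbers for each library, but the lists do not give the depth behind a single call. Lists of domains hold no expression, and the labelled cell type could not be checked against marker genes.

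A nucleosome wraps DNA around a histone octamer, and its ends can unwrap, so that nuclease leaves shorter fragments where wrapping is looser. The wrapping index compares longer with shorter fragments relative to the rest of the genome, so that a TiNRD is a domain with a balance of longer to shorter fragments above the genome mean and a LoNRD a domain with one below it. Replication timing is read from DNA that takes up BrdU in early or late fractions of S phase. Early replicating DNA is commonly rich in genes and in G and C, while late replicating DNA is commonly rich in A and T and poor in genes.

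Tight late segments of 3 kinds were told apart by what lay in the 50 kb on either side, and a stretch from the longest shoulder and from the longest late island is printed here to show its base composition. Each stretch is the first 200 bases from the middle of the segment with an A/T content within 1 percentage point of the whole segment, read 5′ to 3′ on the plus strand of GRCm38 (mm10), with CG dinucleotides in capitals. They held 0 and 2 CG dinucleotides.
Shoulder, chr14:29003201-29003400: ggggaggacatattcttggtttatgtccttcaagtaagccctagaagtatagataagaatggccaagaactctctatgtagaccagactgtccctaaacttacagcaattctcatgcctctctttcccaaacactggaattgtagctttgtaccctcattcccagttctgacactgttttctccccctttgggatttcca
Late island in tight chromatin, chr13:71475201-71475400: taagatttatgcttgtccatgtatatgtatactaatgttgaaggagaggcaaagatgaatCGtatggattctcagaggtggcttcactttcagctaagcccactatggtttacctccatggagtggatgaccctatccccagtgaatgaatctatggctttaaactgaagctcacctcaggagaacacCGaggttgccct

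The promoters of named genes that started in tight late segments ranged from none to many CG dinucleotides, and both ends of that range are printed. Of 54 named genes, 31 matched a RefSeq promoter of GRCm38.p6 by symbol (250 bases before to 50 after the start). The promoter of Crnn, an epidermal differentiation gene, held 0 CG dinucleotides in 300 bases and was 55% A/T. The promoter of Ajap1, which encodes an adherens junction associated protein, held 51 and was 19.3% A/T, with an observed to expected CG ratio of 1.06.
Crnn promoter, chr3:93144539-93144838, plus strand: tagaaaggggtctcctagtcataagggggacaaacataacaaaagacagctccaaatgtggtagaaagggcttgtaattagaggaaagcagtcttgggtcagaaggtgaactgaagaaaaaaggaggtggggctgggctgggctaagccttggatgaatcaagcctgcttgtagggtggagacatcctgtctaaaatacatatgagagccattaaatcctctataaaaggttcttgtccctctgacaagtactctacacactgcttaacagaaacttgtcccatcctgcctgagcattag
Ajap1 promoter, chr4:153482781-153483080, minus strand: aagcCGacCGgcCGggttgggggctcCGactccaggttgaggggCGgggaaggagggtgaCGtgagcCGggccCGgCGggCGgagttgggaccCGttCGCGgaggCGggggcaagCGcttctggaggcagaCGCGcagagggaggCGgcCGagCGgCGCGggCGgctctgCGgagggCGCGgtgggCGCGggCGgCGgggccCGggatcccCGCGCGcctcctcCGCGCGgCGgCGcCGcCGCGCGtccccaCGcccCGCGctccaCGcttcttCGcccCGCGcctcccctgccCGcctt

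Most tight late segments were short. The median length was 350 kb, with quartiles of 200 and 600 kb, and the longest measured 3400 kb. Segments of at least 1000 kb numbered 46 and held 64.35 Mb. At the lower limit 68 segments measured exactly 100 kb, and 71 overlaps of 50 kb, with 3.55 Mb, were left out. For comparison, the median tight early segment measured 825 kb and the median loose late segment 950 kb.

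Tight late segments occurred in 395 of 561 autosomal TiNRDs (70.4%) and in 522 of 849 late RT domains (61.5%). The NRD list used here, with 1243 domains on all chromosomes, is shorter than the one the study describes, so these counts and shares hold for the list used here, and a stretch without a domain in it was taken as not called. As many as 8 lay in a single TiNRD, and segments of the same domain share its value. Only 46 TiNRDs were tight late from end to end, with a median length of 400 kb, while 188 late RT domains were, with a median length of 550 kb. Of all segment ends, 764 (61.1%) were set by the border of an RT domain, 479 (38.3%) by the border of an NRD and 7 by both.

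The segments were selected on 2 measured values, the wrapping index and the timing value of the domains, which are given as a description. A segment carries the values of the domains that hold it, not values measured over the segment alone. The median segment made up 14.7% of its wrapping domain and 33.3% of its timing domain. The wrapping index of the segments ran from 0.013 to 1.49, with a median of 0.59, and their timing value, on a log2 scale of early over late signal, ran from -1.26 to -0.039, with a median of -0.72. An index above 1 was found in 86 segments and a timing value below -1 in 53, and no segment had both. The segment closest to 0 in wrapping, at chr13:18800001-19100000 (index 0.013), held the start of Amph, which encodes the membrane curvature protein amphiphysin. The next, at chr3:93000001-93300000 (index 0.025), held 6 gene starts of the epidermal differentiation complex, among them Crnn, Flg and Flg2. In timing, the segments closest to 0 were chr10:86200001-86550000 (-0.039), with Timp3, an inhibitor of metalloproteinases, and Syn3, a synapsin, and chr9:47900001-48250000 (-0.091), with Nxpe4. Just outside the rule, the LoNRD closest to 0 had an index of -0.018 and the early RT domain closest to 0 a value of 0.070.

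**Figure D1:**
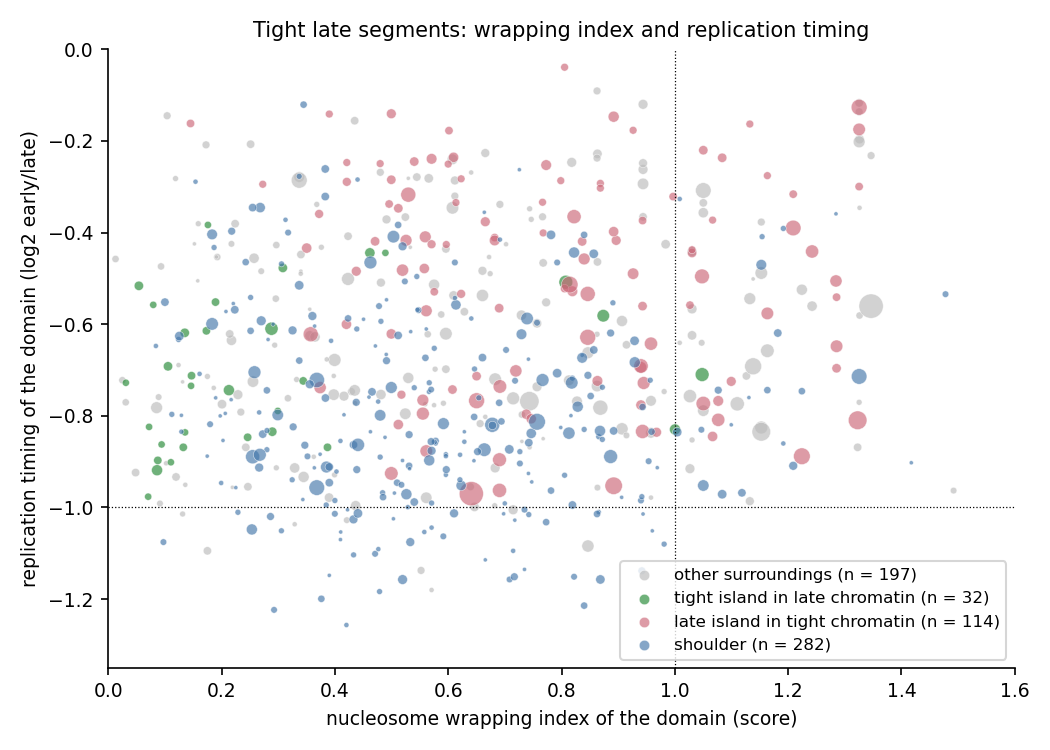
Wrapping index (score, horizontal axis) and replication timing (log2 early to late, vertical axis) of the domains that hold each of the 625 tight late segments, with 1 point per segment, area proportional to its length and colour for its surroundings. Dotted lines mark an index of 1 and a timing value of -1, and no segment lies beyond both. Values of segments that share a domain coincide on that axis.

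Tight late segments were unevenly spread over the chromosomes. Their number ran from 14 on chromosome 19 to 46 on chromosome 7, with a median of 35 per chromosome. They made up 20.6% of the called sequence of chromosome 7 and 7.20% of that of chromosome 10. Of the late replicating sequence, 41.7% was tightly wrapped on chromosome 7 and 13.4% on chromosome 10. Of the tightly wrapped sequence, 34.3% was late on chromosome 14 and 13.9% on chromosome 2. The chromosomes with these high shares also held much multi-copy sequence. Of the 50-base stretches (50-mers) sampled from tight late sequence, 68.4% occurred once in the genome on chromosome 7 and 67.1% on chromosome 14. On chromosomes 10 and 2 the values were 90.0% and 92.9%. The part of multi-copy sequence in the shares was not tested. The share was 18% of called sequence in the first 10 Mb of the chromosomes, which is the centromere end in the mouse, and 16.6% in the last 10 Mb.

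Surroundings of 3 kinds accounted for most segments. A total of 282 segments (45.1%) were shoulders, with tight early chromatin on one side and loose late chromatin on the other. Late islands, with tight early chromatin on both sides, numbered 114, and tight islands, with loose late chromatin on both sides, numbered 32. The other 197 touched sequence without a call in the lists used here or, in 3 cases, loose early chromatin. Shoulders were short, with a median of 250 kb, and late islands long, with a median of 600 kb, so that the 114 late islands held 82.35 Mb and the 282 shoulders 92.5 Mb. The wrapping index was smoothed over neighbouring 100 kb bins before domains were called, which limits how closely short shoulders can be placed. How many shoulders depend on this smoothing was not tested. The median timing value was -0.82 in shoulders and -0.47 in late islands, and the median wrapping index was 0.77 in late islands and 0.17 in tight islands, as calls of the domains that defined them. With the flank read over 200 kb, the count of each kind stayed within 1.5 times.

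**Figure D2:**
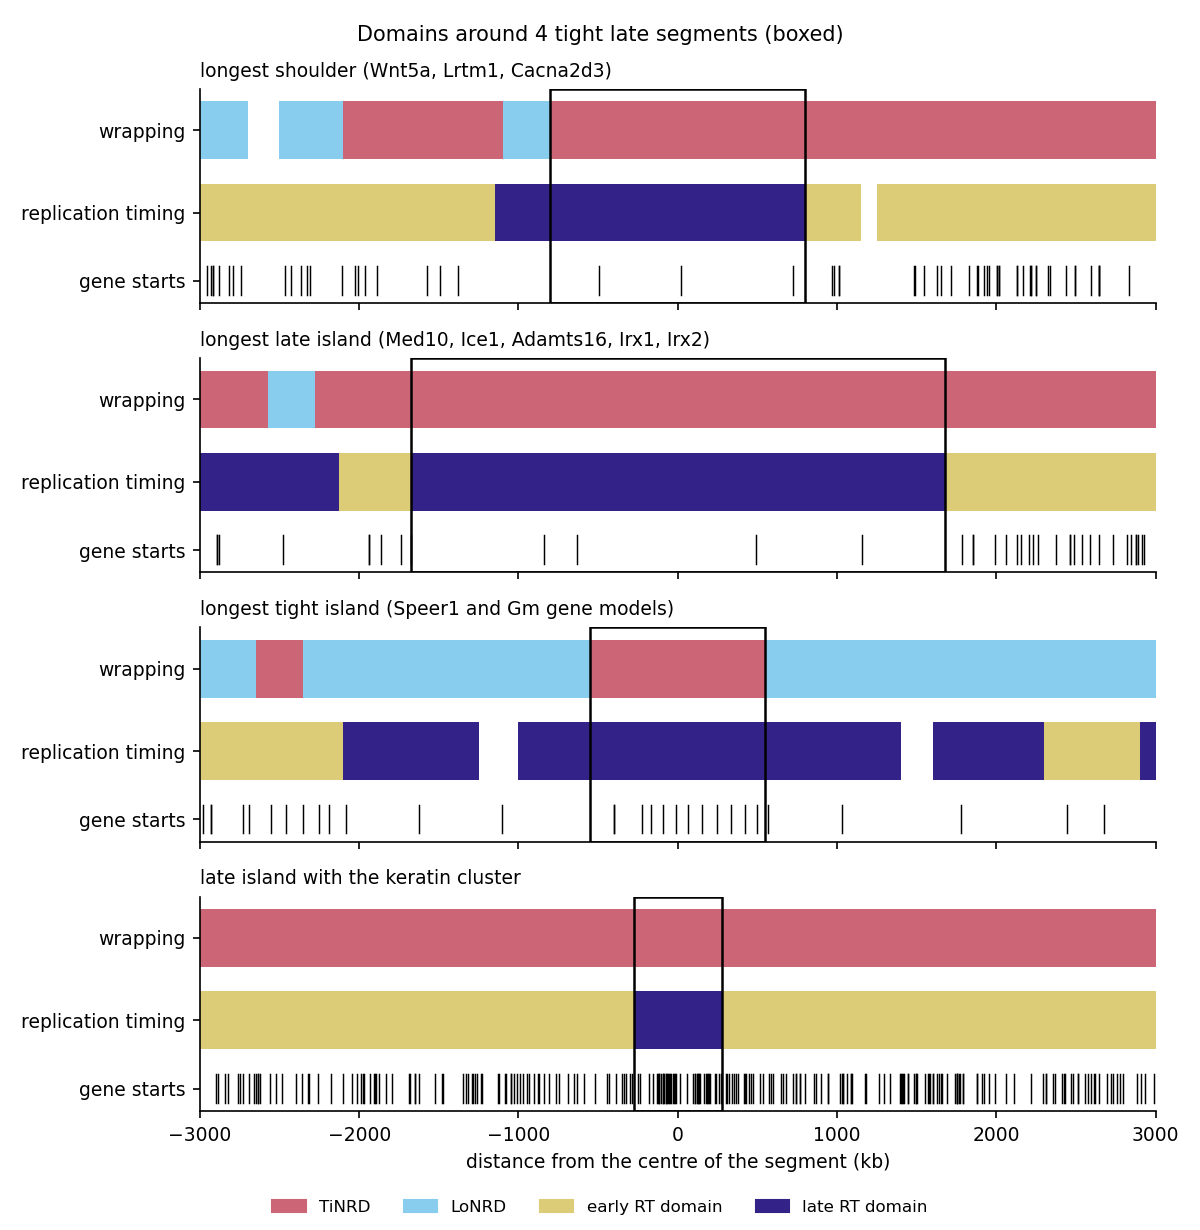
Wrapping domains, replication timing domains and protein-coding gene starts (ticks) around 4 tight late segments (boxes), against distance from the centre of the segment in kb. The shoulder lies between loose late chromatin on the left and tight early chromatin on the right, both late islands lie in a TiNRD between early RT domains, and the tight island lies in a late RT domain between LoNRDs. White gaps are stretches without a call.

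Tight late segments lay between the larger classes in base composition. The A/T content of tight late sequence was 56.9% ± 0.42 (SD over 19 chromosomes), higher than the 54.6% ± 0.81 of tight early sequence on 19 of 19 chromosomes and lower than the 61.5% ± 0.33 of loose late sequence on 19 of 19. The within-chromosome differences were 2.25 ± 0.76 and -4.57 ± 0.56 percentage points (exact two-sided sign-flip permutation test over chromosomes, adjusted p = 7.63e-06 for both, Benjamini-Hochberg over 12 comparisons). The observed to expected ratio of CG dinucleotides lay between the other classes in the same way. It was 0.188 in tight late, 0.225 in tight early and 0.154 in loose late sequence, with tight late in between on 19 of 19 chromosomes (exact test, adjusted p = 7.63e-06 for both differences). Loose early sequence, the other class with discordant calls, was also intermediate, with an A/T content of 59.9% ± 0.42 and a ratio of 0.182 ± 0.0098 over 19 chromosomes, and was not tested against tight late sequence. Chromosomes are not replicate cultures, and the smallest p this test can give is 3.81e-06, so the test says that a difference in these lists recurred from chromosome to chromosome. Micrococcal nuclease cuts with a bias towards A and T, as the paper reports. At the level of single nucleosomes, far below the length of these segments, the paper found a negative, not strong, correlation of A/T content with the wrapping index. It also reported no substantial difference in cutting bias between TiNRDs and LoNRDs. A/T content may therefore not be independent of the wrapping calls, and the part of this bias in the differences was not tested.

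Repeats were fewer in tight late than in loose late segments. Repeat-masked bases made up 29.4% ± 3.66 of tight late sequence, 28.6% ± 0.72 of tight early and 38.5% ± 1.72 of loose late sequence. Tight late segments held 9.17 percentage points fewer repeats than loose late ones, on 19 of 19 chromosomes (exact test, adjusted p = 7.63e-06). Against tight early sequence the difference was 0.75 ± 3.34 percentage points, higher on 10 and lower on 9 chromosomes (exact test, adjusted p = 0.377). That difference turned to -1.04 (exact p = 0.0237, unadjusted) once the segments with few single-copy sequences were left out.

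**Figure D3:**
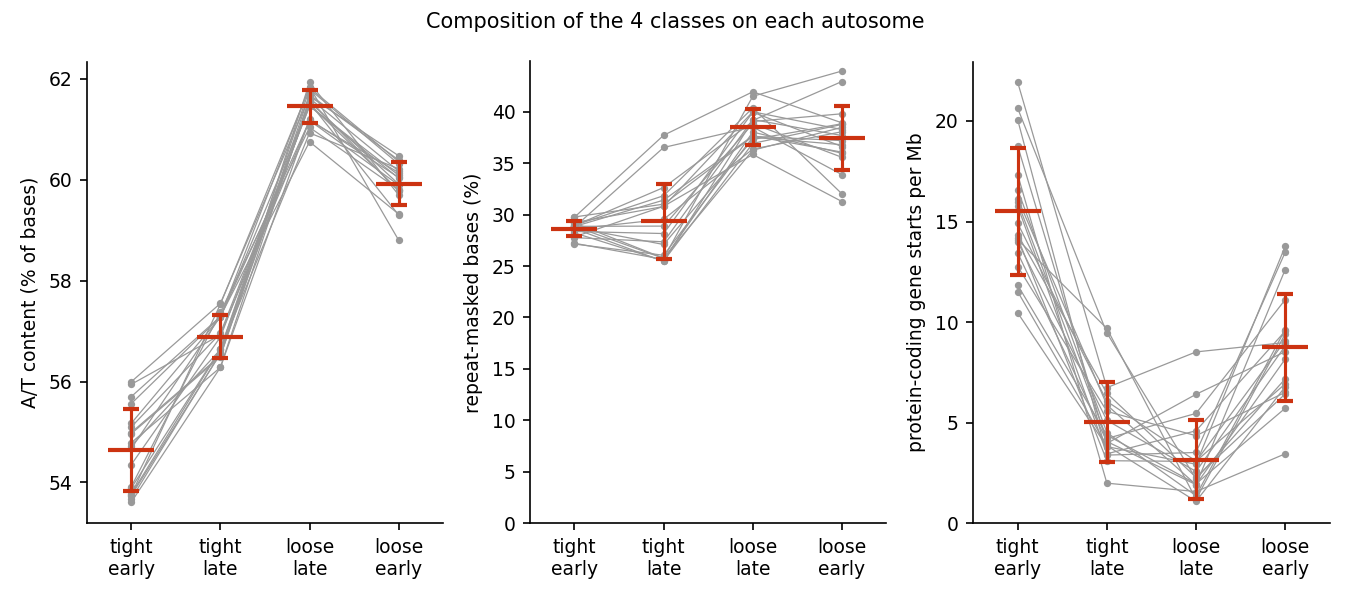
A/T content, repeat-masked bases and protein-coding gene starts per Mb of the 4 classes, with 1 grey line per autosome (n = 19) and red bars for the mean and SD over chromosomes. The A/T axis does not start at 0. Tight late sequence lies between tight early and loose late sequence in A/T content on every one of the 19 chromosomes.

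Within a shoulder, A/T content changed from one end to the other. The median A/T content was 56.2% in the 500 kb outside a shoulder on its tight early side, 57.3% in the part of the shoulder from its middle to that side, 58% in the part from its middle to loose late chromatin and 59.8% in the 500 kb beyond. The side of the shoulder that faced loose late chromatin was the more A/T-rich in 195 of 282 shoulders and the less in 87. Late islands were more A/T-rich than their flanks of 500 kb in 79 of 114 cases, by a median of 0.51 percentage points with quartiles of -0.13 and 1.77. Tight islands were less A/T-rich than their flanks in 30 of 32 cases, with a median difference of -1.60 percentage points and quartiles of -2.35 and -1.17. These differences are descriptions, with no test.

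**Figure D4:**
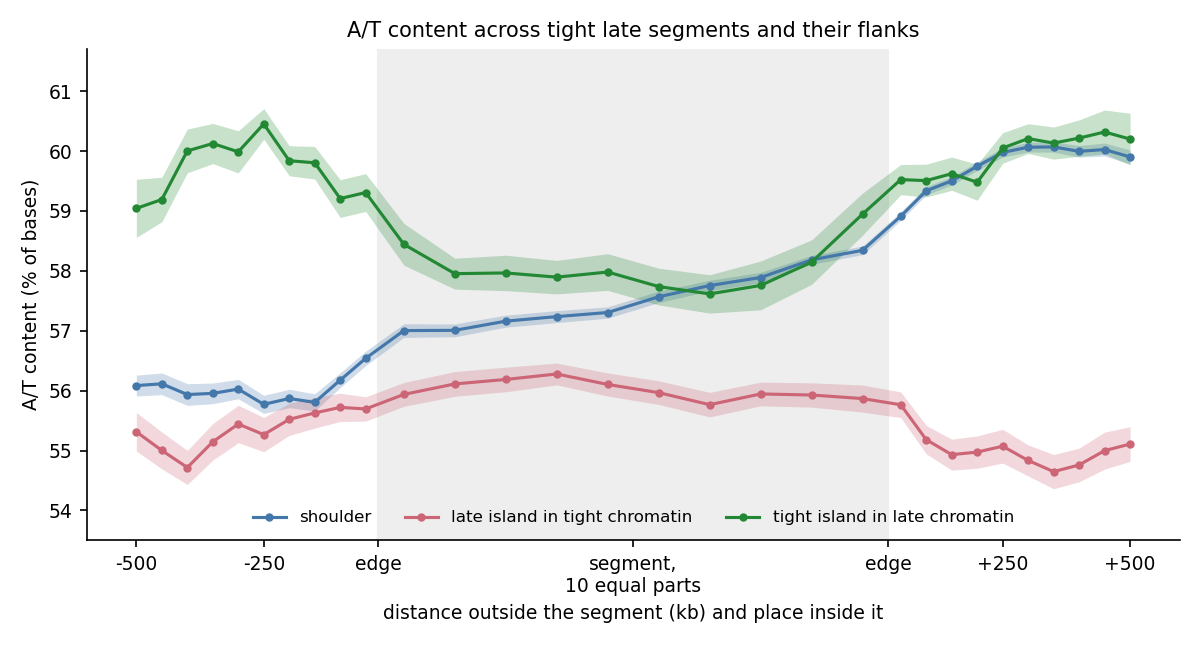
Mean A/T content (% of bases; the axis does not start at 0) from 500 kb outside one edge to 500 kb outside the other, with the segment itself (grey) in 10 equal parts; shading is the standard error over segments. Shoulders (n = 282) are turned so that tight early chromatin lies on the left. The line of the shoulders rises from left to right, that of the late islands (n = 114) is raised inside and that of the tight islands (n = 32) is lowered inside.

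Genes were sparse in tight late segments. Of 20807 autosomal protein-coding genes, 1488 (7.15%) started in a tight late segment, against 14497 in tight early and 2812 in loose late segments. The density was 5.03 ± 2.01 starts per Mb over 19 chromosomes, lower than the 15.5 ± 3.14 of tight early sequence on 19 of 19 chromosomes (exact sign-flip permutation test, adjusted p = 7.63e-06). It was higher than the 3.16 ± 1.95 of loose late sequence on 14 of 19 chromosomes, by 1.88 ± 2.87 (exact test, adjusted p = 0.0113). As a median over the segments of a chromosome the second difference was 0.94 (exact p = 0.0417, unadjusted). The genes were bunched: 205 segments held no protein-coding start, and 24 segments with at least 10 starts held 448 of the 1488. Shoulders had 4.59 starts per Mb inside and 7.33 in their flanks of 500 kb, and late islands 4.47 inside and 11.6 in their flanks. Tight islands had 8.23 inside and 5.78 in their flanks, but 5.50 inside and 4.35 in their flanks over the 26 of them with at least 50% single-copy 50-mers, a selection made after seeing the data. These values by surroundings are descriptions, with no test.

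Promoters in tight late segments were mostly poor in CG. Promoters with a CG ratio of at least 0.6 and a G/C content of at least 50% made up 29.8% ± 12.7 of those in tight late segments (mean over 19 chromosomes), against 50.8% ± 4.77 in tight early ones (lower on 17 of 19 chromosomes, exact test, adjusted p = 5.23e-05). In loose late segments the share was 19.6% ± 9.73 (tight late higher on 13 of 19, exact test, adjusted p = 0.0322). The second difference did not pass the threshold without chromosome 9 (exact p = 0.0523) or without chromosome 17 (exact p = 0.0533), nor with stricter domain calls (3.22 percentage points, exact p = 0.570), all unadjusted.

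Part of the tight late sequence holds 50-mers that occur in several exact copies, where reads may be hard to place. Of the 50-mers sampled from tight late sequence, 86.9% ± 8.36 occurred once in the genome, against 93.0% ± 1.56 in tight early sequence (lower on 17 of 19 chromosomes, exact test, adjusted p = 0.000269) and 87.8% ± 1.76 in loose late sequence (exact test, adjusted p = 0.621). The low values came from few places: the median segment had 93.1% single-copy 50-mers, and 40 segments with 28.6 Mb had under 50%. Without such segments the difference from tight early sequence was -1.43 percentage points (exact p = 0.00211, unadjusted). Part of this shift is by construction, since the segments were left out on the same measure. Reads of low mapping quality had been removed before the domains were called, and the part of mappability in the calls of these 40 segments was not tested.

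The longest segment was one of these. At chr14:3700001-7100000 it measured 3400 kb, held 73 protein-coding starts, mostly Gm gene models such as Gm3002, Gm2916 and Gm3173, and had 9.74% single-copy 50-mers and 61.8% repeats, with an index of 1.35 and a timing value of -0.56. The segment at chr7:7250001-9400000 (2150 kb) held 19 starts, 16 of them vomeronasal type 2 receptors such as Vmn2r30 and Vmn2r35, which detect pheromones, and had 11.7% single-copy 50-mers. The longest tight island, chr5:10800001-11900000, was also the most A/T-rich segment of at least 500 kb, with 62.2% A/T. It held 12 starts, among them Speer1, a member of a rodent family expressed in testis, and 13.6% of its 50-mers were single-copy. A whole TiNRD of 1100 kb made up this island, inside a late RT domain of 2400 kb.

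Other long segments held few protein-coding genes and were mostly single-copy. The longest late island, chr13:69800001-73150000, measured 3350 kb and was a whole late RT domain, with a timing value of -0.97 and an index of 0.64. It held 5 protein-coding starts: Med10, a Mediator subunit; Ice1, a subunit of the little elongation complex; Adamts16, a metalloprotease; and the homeobox genes Irx1 and Irx2. Its 50-mers were 93.1% single-copy and its A/T content 56.6%. The segment at chr8:114450001-116450000 (2000 kb, index 1.15, timing -0.83) held Maf, which encodes a bZIP transcription factor, as its only protein-coding start among 11 gene starts of any type, and chr15:86450001-88450000 (2000 kb, index 1.32, timing -0.81) held Fam19a5, which encodes a secreted chemokine-like protein, as its only one among 18. Both were whole late RT domains inside TiNRDs of 14500 and 17400 kb. The longest shoulder, chr14:28200001-29800000 (1600 kb), held Wnt5a, a noncanonical Wnt ligand, Lrtm1, and Cacna2d3, a calcium channel subunit. The least A/T-rich segment of at least 500 kb, chr4:152700001-153550000, was a late island of 850 kb with 51.0% A/T, 98.0% single-copy 50-mers and Ajap1 as its only protein-coding start.

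The gene lists differed widely in the share that started in tight late segments, and those with high shares are given first. Of 60 serpins, which are mostly protease inhibitors, 28 (46.7%) started there, against 7.15% of all protein-coding genes. A total of 21 were Serpina genes, many of them expressed in liver, in chr12:103650001-104350000 (index 1.22, timing -0.52, 54.2% A/T). Of 64 defensins, which are antimicrobial peptides, 28 (43.8%) started in tight late segments, 27 of them in chr8:21100001-22000000, where 37.4% of 50-mers were single-copy. Of 110 keratins and keratin-associated proteins, which build epidermis and hair, 28 (25.5%) did, 25 of them in chr11:99400001-99950000. This late island of 550 kb had the highest gene density among segments of at least 500 kb, with 43 starts or 78.2 per Mb, 0% CG-rich promoters and 86.4% single-copy 50-mers (index 1.10, timing -0.72). Of 100 cytochrome P450 genes, enzymes of steroid, lipid and drug metabolism, 14 did, with 6 Cyp4a genes such as Cyp4a10 in a late island on chromosome 4 and 6 Cyp3a genes such as Cyp3a11 in a late island on chromosome 5. Since neighbours in a tandem cluster share a segment, such counts rest on few segments, and the share of a list is a description.

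Receptor and immune families were split between classes. Of 208 vomeronasal type 1 receptors, 52 (25%) started in tight late segments and 104 in loose late ones, and 24 of the 52 lay in the tight island chr7:20400001-21500000, where 8.73% of 50-mers were single-copy. Of 1128 olfactory receptors, 46 (4.08%) started in tight late and 738 (65.4%) in loose late segments. The tight late ones included 18 in a late island at chr11:58450001-58800000 (Olfr30, Olfr332 and neighbours). The list of interleukins and chemokines, which by its naming pattern also holds their receptors, had 27 of 112 members (24.1%) in tight late segments. Among them were Ccl2, Ccl7, Ccl8, Ccl11 and Ccl12, chemokines of monocytes and eosinophils, in the late island chr11:80900001-82500000 (index 0.81, timing -0.51, 96.2% single-copy 50-mers). Il2 and Il21, T cell cytokines, lay together in a shoulder on chromosome 3. Of 218 immunoglobulin variable segments, which are not among the protein-coding genes, 27 (12.4%) started in tight late segments, beside 10.03% of all annotated genes. The 27 lay in 3 tight late segments, with 14 kappa segments at chr6:70250001-70650000. None of 34 MHC genes and none of 26 killer cell lectin-like receptors started in tight late segments, beside 7.15% of all protein-coding genes. Lists this short could hold none at that share. Of the MHC genes, 29 started in tight early segments, and of the killer cell lectin-like receptors, 19 started in loose late segments.

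Channel, receptor and adhesion families differed in their share. Of 92 potassium channel genes, 17 (18.5%) started in tight late segments, among them Kcna1, Kcna5 and Kcna6 in the late island chr6:125850001-126800000 and Kcna2, Kcna3 and Kcna10 in the shoulder chr3:107000001-107200000. Of 43 GABA and glutamate receptor genes, 3 (6.98%) did, near the 7.15% of all protein-coding genes, the NMDA receptor subunits Grin2a and Grin2b and the AMPA receptor subunit Gria1. Of 23 cadherins, 2 (8.70%) did, Cdh13 and Cdh26, which is also near that share. Of 57 clustered protocadherins, cell surface proteins that give neurons their identity, 24 (42.1%) started in 1 late island, and the remaining 33 in tight early segments. The island held the end of the alpha cluster and genes of the beta cluster. Of 43 collagens, 7 (16.3%) did, among them Col4a3 and Col4a4, which share a promoter region and encode basement membrane chains. Of 358 solute carriers, membrane transporters of many tissues, 21 (5.87%) did, again near that share, and of 53 placental genes 6 (11.3%) did, 5 of them pregnancy-specific glycoproteins such as Psg18 in 1 shoulder.

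Lists of ribosomal protein, histone, pluripotency and developmental genes had shares in tight late segments of 5.49% or less, beside 7.15% of all protein-coding genes. Of 95 cytosolic ribosomal protein entries, 2 started there, Rpl10-ps3 and Rps12-ps3, whose symbols are those of pseudogenes, while 84 started in tight early segments. None of 67 replication-dependent histone genes started in tight late segments, with 32 in loose early segments, 24 in tight early segments and 11 outside all segments. None of 19 autosomal pluripotency factors started in tight late segments, though so short a list could hold none at a share of 7.15%. Of these factors, 18 started in tight early segments and Zfp42 (Rex1) in a loose early segment. Of 164 homeobox and other developmental transcription factors, 9 (5.49%) started in tight late segments, which is near the 7.15% of all genes. A further 135 started in tight early segments. Among the 9 in tight late segments were Irx1, Irx2, Lhx8, Foxi1, Foxi2, Sox14 and Gata6. The timing values of their segments ran from -0.97 for Irx1 and Irx2 to -0.23 for Lhx8.

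Of 455 zinc finger genes, 20 (4.40%) started in tight late segments, a share below the 7.15% of all protein-coding genes, and 349 started in tight early segments. Of these 20, 8 were the Zscan4 genes and their related pseudogenes (Zscan4b, Zscan4c, Zscan4d, Zscan4e, Zscan4f and the entries Zscan4-ps1, Zscan4-ps2 and Zscan4-ps3). Zscan4 proteins are expressed in early cleavage embryos and in a small share of stem cells at a time. They lay in the tight island chr7:10800001-11700000, with an index of 0.87, a timing value of -0.58, 58.3% A/T and 37.8% single-copy 50-mers. The segment was thus among the 40 with under 50% single-copy 50-mers.

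**Figure D5:**
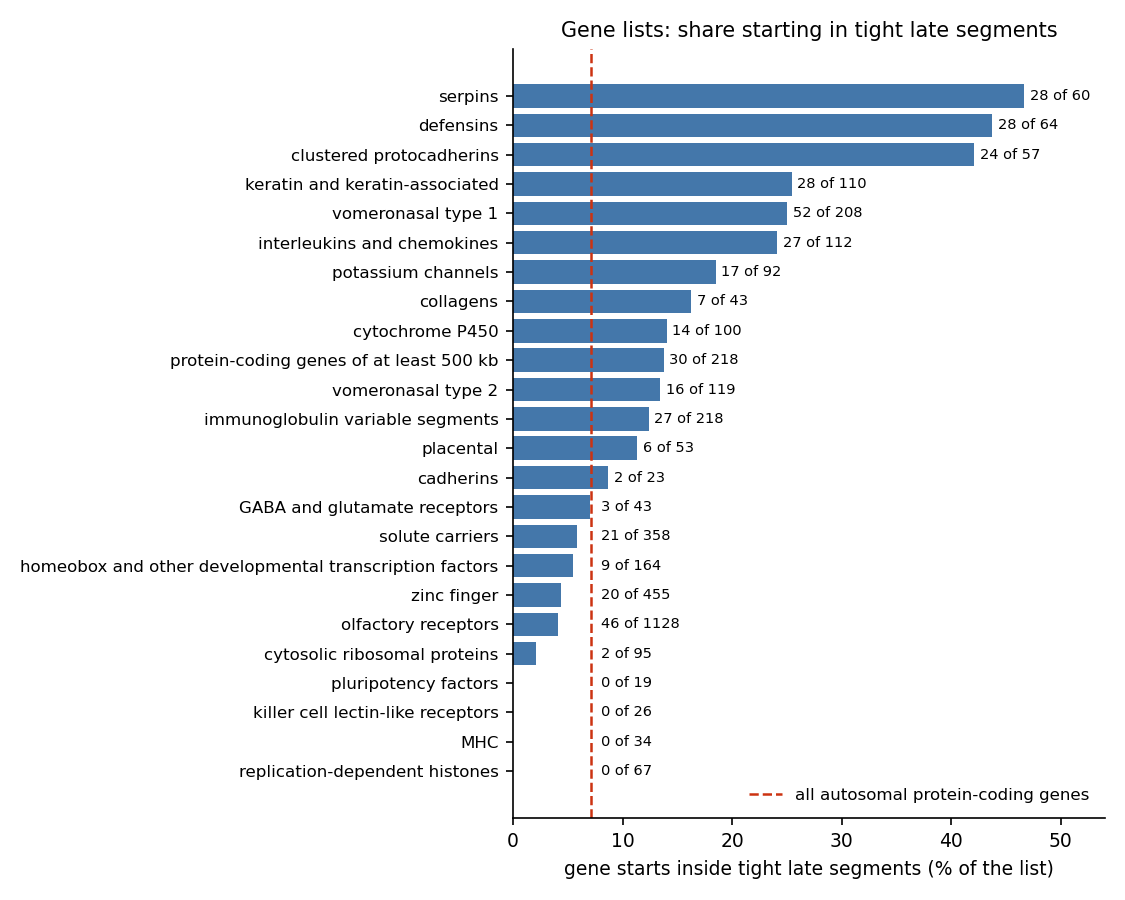
Share of each gene list that started in tight late segments (% of the list, bars), with the number of genes beside each bar and a dashed line for the 7.15% of all autosomal protein-coding genes. Serpins, defensins and clustered protocadherins are highest, between 42.1% and 46.7%, and the lists at the bottom had no member there. Immunoglobulin variable segments are not protein-coding entries, and the share of all annotated genes was 10.03%.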

How the data were processed

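H3-wrapping-seq and replication timing of R1 mouse embryonic stem cells were used as 2 domain lists, both of whose value columns were used. The authors trimmed reads with cutadapt 4.3, aligned them to mm10 with Bowtie2 2.5.1, removed duplicates and kept properly paired reads above a mapping quality. The wrapping index is a score deposited by the authors, a z-score over 100 kb bins of the relative deviation between fragments of 140 to 250 and of 50 to 140 bases, smoothed before domains were called with homer2. The timing value deposited by the authors is the log2 ratio of the S1 and S2 to the S3 and S4 fractions in 50 kb windows, after quantile normalization. How replicates were pooled and how a domain value was made from its bins are not given in the sources used here. The other libraries of the study were not used here, and 1 sequence and 1 gene are not reported here.

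Each 50 kb bin was given both calls, and runs of at least 100 kb with the same pair of calls were segments. Flanks were read in the adjoining 50 kb. Sequence came from GRCm38, soft-masked bases counting as repeats, and gene starts from GENCODE M21. Promoters were 250 bases before to 50 after a start, and 50-mers were sampled every 1 kb and counted over the genome. Within-chromosome differences over 19 chromosomes were tested with a two-sided exact sign-flip permutation test, with Benjamini-Hochberg adjustment over 12 comparisons (6 measures, 2 contrasts) and a threshold of 0.05, after tests on simulated data. The members, gene lists and tests were chosen with earlier results of these data known. Named segments were the 5 longest, the longest of each kind, those of at least 500 kb with the highest and lowest A/T content and the highest gene density, and the 2 nearest 0 in each value, off 1 chromosome left out of naming. Gene lists were named through their members or the 3 segments with most of them, and further members were named after their positions were seen. Alternatives were other minimum lengths, stricter calls, trimmed borders, merged domains, unpooled averages, segments or chromosomes left out, and other definitions of genes and promoters. Calculations used Python 3.11.15, numpy 2.4.6 and matplotlib 3.10.9.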

Additional observations from a re-analysis of the deposited data

How the results depend on the processing

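All p-values here are unadjusted. Of 110 alternatives, 99 kept their direction and side of the threshold or stayed within 1.5 times. Segments numbered 406 with a minimum of 300 kb, 218 with 500 kb and 196 with stricter domain calls, and their length fell to 178.8 Mb with 500 kb and 92.45 Mb with stricter calls. Repeat share against tight early sequence turned to -1.04 percentage points (exact p = 0.0237) without segments of under 50% single-copy 50-mers and to -1.20 (exact p = 0.0142) as a median over segments. Under the same settings, single-copy 50-mers against loose late sequence turned to 3.78 and 4.43 percentage points (exact p = 3.81e-06 for both, the smallest this test can give), by construction of the first. CpG-rich promoters against loose late sequence missed the threshold with stricter calls (3.22 percentage points, exact p = 0.570) and as a mean over segments (3.96, exact p = 0.272). The cause of the other changes was not tested.

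Leaving out each chromosome in turn, chosen after seeing the data, gave 228 values, of which 225 kept direction and side of the threshold. CpG-rich promoters against loose late sequence ran from 8.14 to 12 percentage points, and missed the threshold without chromosome 9 (8.63, exact p = 0.0523) or chromosome 17 (8.14, exact p = 0.0533). Single-copy 50-mers against loose late sequence ran from -1.33 to 0.23 percentage points, above 0 without chromosome 14 only (exact p = 0.870). A/T content kept its direction against both classes under all alternatives run and with each chromosome left out, with differences from 1.49 to 3.00 percentage points against tight early and from -5.23 to -3.45 against loose late sequence with all chromosomes kept. No paired analysis was possible because the domain lists carry no replicate numbers. The lists do not give the depth behind single calls, though the paper reports read numbers for each library. Smoothing over neighbouring bins limits how closely borders, and with them the short shoulders, can be placed.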

Other observations

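Noncoding genes were also found in tight late segments. Of 51229 autosomal genes of any annotated type, 5140 (10.03%) started there. Of 9426 autosomal lncRNA genes, 1173 (12.4%) started there, of 11594 pseudogenes 1526 (13.2%), of 2054 miRNA genes 127 (6.18%) and of 1442 snoRNA genes 292 (20.2%). The snoRNA count rested on 1 place: 210 of the 292 lay in the tight island chr7:59300001-60000000, in the imprinted Snrpn region (index 1.00, timing -0.83). Their entries include Gm22046 and Gm22047. This segment was 1 of the 40 with few single-copy sequences (41.1% of its 50-mers). Leaving these 210 out, 82 snoRNA genes remained in tight late segments.

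Very long genes, many of them expressed in neurons, also started in tight late segments. Of 218 protein-coding genes of at least 500 kb, 30 (13.8%) started there, beside 7.15% of all protein-coding genes, and 115 in loose late segments. The longest was Rbfox1, a neuronal splicing regulator (1526 kb), in a shoulder, followed by Opcml, a cell adhesion molecule (1135 kb), also in a shoulder, and by Dab1, an adaptor of reelin signalling (1125 kb). Auts2, linked to neurodevelopment (1106 kb), started in a tight island. These genes were chosen after their lengths were seen, and a start in a segment does not place the whole gene in it. The median gene length was 16.6 kb in tight late, 18 kb in tight early and 11.9 kb in loose late segments.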
